A study of Mus musculus with 18 samples.

Results

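The 45 genes described here encode the lysosome's proton pump, its membrane proteins, a set of its acid hydrolases with their cofactors, the receptors that deliver hydrolases, and a pair of transcription factors that control many of these genes. They were taken from the deposited table by gene symbol, and the set was chosen with earlier results of these data known. All 45 symbols were found among the 54532 genes of the table, and all 45 passed the low-count filter that left 14684 genes for testing.

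Polyadenylated RNA was sequenced from macrophages grown out of the tibial bone marrow of mice aged 2 to 3 months. All mice carried the floxed Smad1 allele (Smad1 fl/fl), and the study compared mice with that allele alone, called floxed-labelled here, with mice that also carried LyzM-Cre (MyS1KO), called knockout-labelled here. LyzM-Cre places Cre recombinase under the control of Lyz2, a lysozyme gene of myeloid cells. Cells of both labels spent 48 h in CSF-1 at 120 ng/ml after replating and about 16 h without serum. For the last 4 h they were left alone, or had TGF-β1 added at 10 ng/ml, or BMP4 at 50 ng/ml. Each of the 6 groups held 3 libraries, numbered 1 to 3 in the labels. The labels do not name an animal or culture for each library, so p-values measure only the spread between these libraries, which may be technical in part.

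Lysosomes digest material taken in by endocytosis, phagocytosis and autophagy, and macrophages are rich in them. The vacuolar ATPase (V-ATPase) acidifies the lysosome: its V1 sector splits ATP and drives rotation, and its V0 sector in the membrane carries the protons. Most soluble hydrolases receive a mannose 6-phosphate tag in the Golgi and reach the lysosome bound to the receptors M6pr and Igf2r, while Sort1 and Scarb2 carry particular cargoes without that tag.

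Total counts per library ran from 15153296 to 24639163, so that 3 counts, the floor used here, stood for 0.122 to 0.198 CPM (reads of a gene per fixed total of reads, the usual CPM scale; counting error only). The 45 genes together took 3.15% to 3.71% of all counts in each library. Pmepa1, a target of TGF-β signalling, stood at 184 to 214 CPM in the 6 libraries given TGF-β1 and at 0.309 to 1.17 CPM in the other 12. Smad1 ran from 19.5 to 26.8 CPM in knockout-labelled and from 22.2 to 31.1 CPM in floxed-labelled libraries; which exon was deleted is not given in the sources used here, so these values check nothing. Lyz2 stood at 37.6 to 74.3 CPM in the floxed-labelled libraries numbered 1, at 8118 to 9872 CPM in those numbered 2 and 3, and at 13450 to 17790 CPM under the knockout label, and the Cre allele sits in that gene. The direction between labels therefore rests on the labels alone, and counts are also given without the 3 floxed-labelled libraries numbered 1. All 10 macrophage markers looked at were expressed (10500 to 29800 CPM in sum, Lyz2 included), against 84 to 221 CPM for 8 neutrophil markers, 383 to 796 CPM for 4 inflammatory monocyte markers, 21.3 to 43.5 CPM for 6 osteoclast markers and 0.0533 to 15 CPM for 6 stromal markers. Cd3e, Ncr1, Pdgfra, Lum, Mcpt8 and Calcr were at 0 counts in most libraries. With TGF-β1, 2 of the macrophage markers rose and 1 fell under each label. Further, 1 osteoclast marker fell under the knockout label, and of the dendritic cell markers 1 rose under the floxed label and 1 fell under the knockout label. None of the neutrophil, inflammatory monocyte or stromal markers was called. The part of these other cell types in the results was not tested, and in bulk RNA fewer cells of a type and less RNA per cell cannot be told apart.

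Levels were compared between genes as FPKM (fragments per kilobase of gene length and per fixed total of fragments), the authors' own values. Psap, the precursor of the saposins that present lipids to hydrolases, was the highest of the 45. It ran from 3250 to 4140 FPKM over the 18 libraries, with a median of 3630, and ranked 6 among all genes by its mean. Lipa, the acid lipase that frees cholesterol from lipoproteins, followed with a median of 880 FPKM, then Lamp1 (805), Cd68 (800), Grn (684), Lgmn (640), Hexa (572) and Laptm5 (390). These are medians. From Lipa to Hexa each range overlapped that of the next gene, from 621 to 945 FPKM for Lipa down to 504 to 636 for Hexa, so neighbours could not be ordered, whereas Laptm5 (377 to 440) lay below them all. The proton pump sat in the middle of the set. Its accessory subunit Atp6ap1 (median 159 FPKM), Atp6v0b (154) and Atp6v1a (153) were the highest of the 14 pump genes, and their ranges overlapped. Atp6v1h had the lowest median of the 14 at 10.5 FPKM, although Atp6v0c (median 21.7) lay lower in 3 libraries, down to 6.76 FPKM. The regulators and channels were also among the lowest: Tfe3 had a median of 18.4 FPKM, Mcoln2 15.3, Tfeb 11.5 and Mcoln1 9.76.

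**Figure D1:**
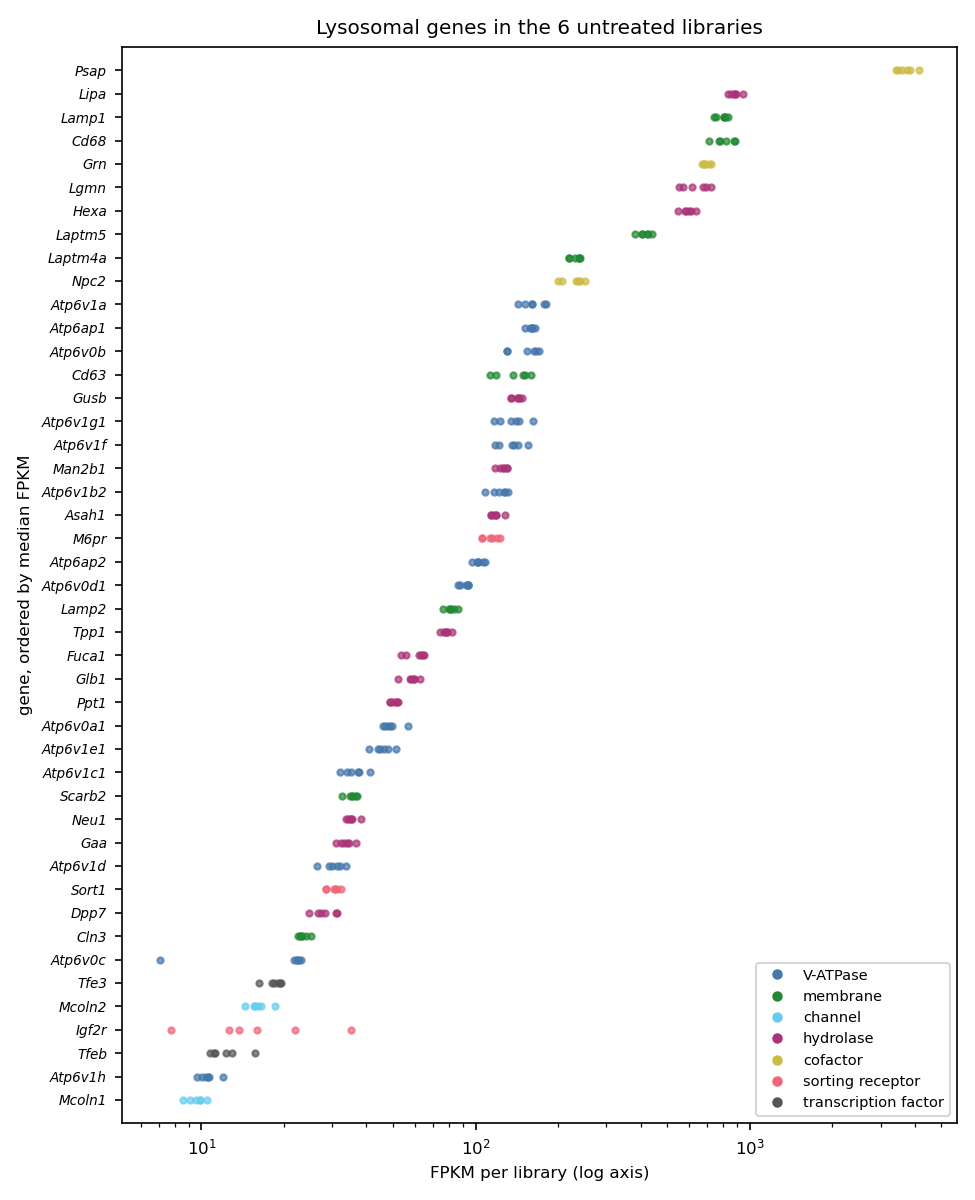
FPKM (log axis) of each of the 45 genes in the 6 untreated libraries, 1 point per library, genes ordered by their median and coloured by role. Psap lies above all other members, and Atp6v0c and Igf2r have the widest spreads between libraries.

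Tfeb and Tfe3 bind the palindrome TCACGTGA, which contains the shorter palindrome CACGTG, so each match is the same on both strands. Promoter windows of 250 bases before to 50 bases after the start, from RefSeq (GRCm38.p6), were matched by symbol for 38 of the 45 genes, giving 46 windows. TCACGTGA was in 6 of these 46 windows (13%) and in 320 of 32851 windows of all genes (0.974%). CACGTG, which counts those windows too, was in 12 of 46 (26.1%) and in 2349 of 32851 (7.15%). The matches are a description of letters, not of binding. The 6 genes with TCACGTGA were Atp6v0d1, Atp6v1a, Cln3, Dpp7, Igf2r and Mcoln1. Their matches are shown 5′ to 3′ on the gene's own strand, to set beside their responses, with TCACGTGA in capitals. The match starts 4 bases before the RefSeq start in Atp6v0d1 (chr8:105566040-105566094, minus strand), 132 in Atp6v1a (chr16:44139358-44139417, minus), 122 in Cln3 (chr7:126583325-126583384, minus), 74 in Dpp7 (chr2:25356373-25356432, minus) and 46 in Mcoln1 (chr8:3500447-3500506, plus). Igf2r (minus strand) has a match 49 bases before the start (chr17:12769722-12769781) and another 8 bases before it (chr17:12769682-12769740).
Atp6v0d1: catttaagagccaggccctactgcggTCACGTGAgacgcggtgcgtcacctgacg
Atp6v1a: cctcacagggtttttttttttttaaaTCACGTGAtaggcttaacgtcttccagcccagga
Cln3: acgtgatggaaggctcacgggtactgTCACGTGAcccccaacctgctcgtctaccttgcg
Dpp7: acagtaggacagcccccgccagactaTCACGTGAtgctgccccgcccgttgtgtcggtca
Igf2r, farther match: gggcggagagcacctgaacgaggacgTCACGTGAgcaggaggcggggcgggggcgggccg
Igf2r, nearer match: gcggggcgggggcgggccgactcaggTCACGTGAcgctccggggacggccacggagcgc
Mcoln1: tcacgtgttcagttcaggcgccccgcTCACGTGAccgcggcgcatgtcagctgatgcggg

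Tested without pairing libraries by their number, TGF-β1 changed a minority of these genes, in both directions. Under the floxed label 6 of the 45 rose and 6 fell (edgeR adjusted p under 0.05, here "called"), where 17% of all 14684 genes tested rose and 16% fell. Under the knockout label 7 rose and 7 fell, where 17.6% of all genes rose and 17.1% fell. The members' shares in this fit, 26.7% and 31.1%, were thus no higher than those of all genes, 33% and 34.6%. The fit that pairs libraries by number, given further on, called 51.1% of the members under each label. In that fit 20.1% of all genes rose and 19.5% fell under the floxed label, and 20.2% and 20.1% under the knockout label. Calls given by role in the next paragraphs are those without pairing, unless stated. The median log2 change of the 45 was -0.02 under both labels, beside 0.00 for all genes, and the median size of the change was 0.10 and 0.11, beside 0.22 and 0.24. A called change of at least 2-fold was seen in the same 3 genes under both labels (6.67% of members, against 8.19% and 8.32% of all genes): Scarb2 was higher, and Mcoln2 and Atp6v0a1 were lower. With total counts in place of TMM scaling the split was 4 higher and 8 lower under the floxed label and 6 and 11 under the knockout label. All genes leaned the same way under that scaling, with 15% higher and 18.1% lower under the floxed label and 15.5% and 18.7% under the knockout label. Without the 3 floxed-labelled libraries numbered 1, the members' split was 4 and 6 (all genes 13.2% and 12.9%), and 6 and 8 (17% and 16.5%).

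Of the 45 genes, 10 (22.2%) were called under both labels, beside 27% of all genes. Atp6v1d, Grn, M6pr, Man2b1 and Scarb2 rose, and Atp6v0a1, Atp6v1b2, Lipa, Mcoln2 and Sort1 fell. Cln3 and Tpp1 passed the threshold under the floxed label alone, and Atp6v1a, Atp6v1g1, Fuca1 and Neu1 under the knockout label alone, but the test of the difference between labels, given further on, called none of them. The TGF-β1 and untreated libraries did not overlap for 18 of the 45 genes under the floxed label and for 16 under the knockout label, and for 12 under both. These shares of 40%, 35.6% and 26.7% were below those of all genes, 43.9%, 44.9% and 32%.

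**Figure D2:**
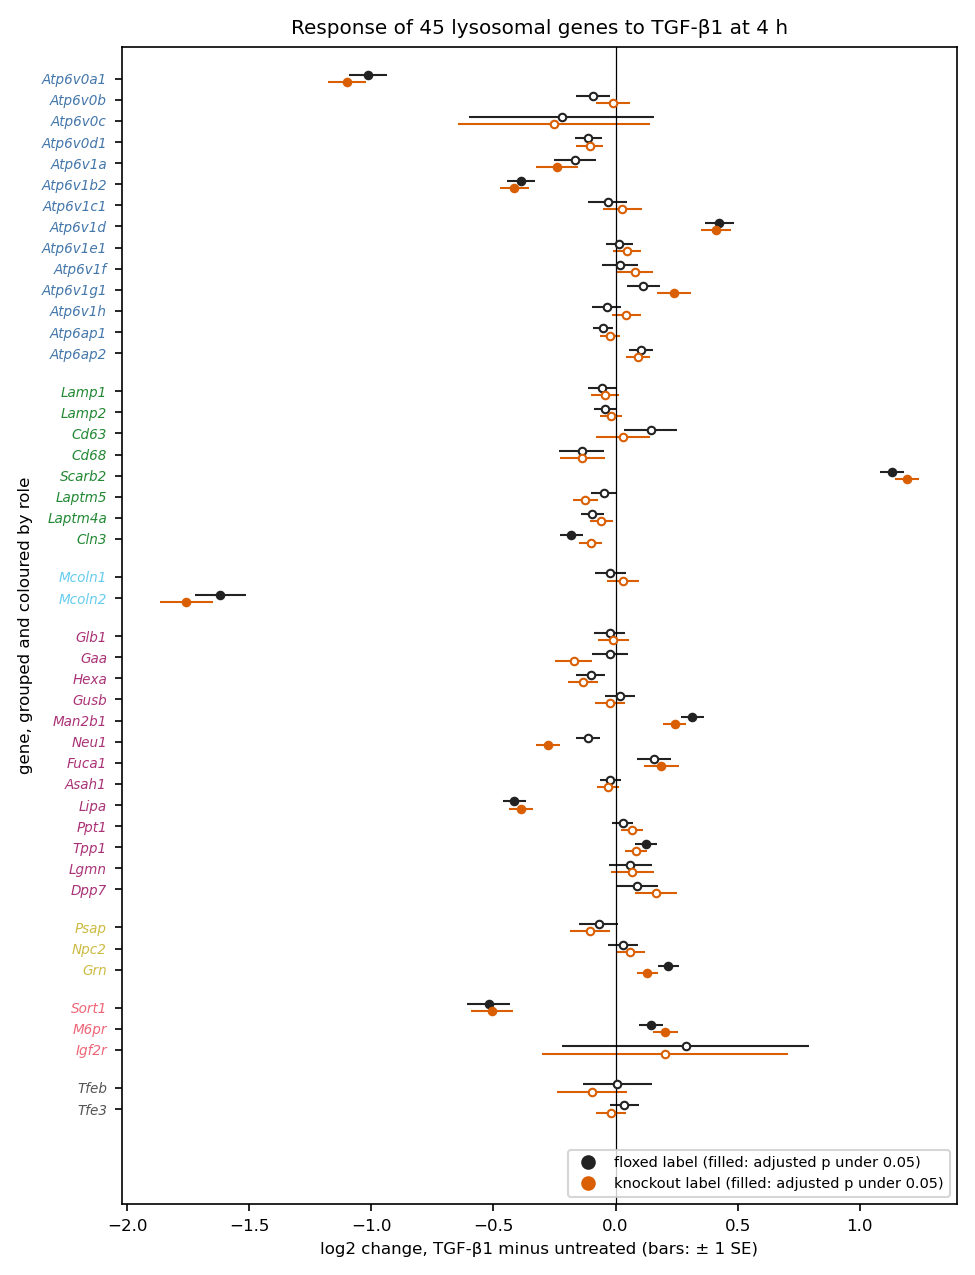
log2 change with TGF-β1 against untreated libraries for each of the 45 genes, with bars of ± 1 SE from the edgeR fit, for the floxed label (black) and the knockout label (orange). Filled points passed an adjusted p of 0.05; Scarb2 lies above 1, and Mcoln2 and Atp6v0a1 lie below -1 under both labels.

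Without pairing, 1 of the 14 proton pump genes rose and 2 fell under the floxed label (21.4% called, all genes 33%). Under the knockout label 2 rose and 3 fell (35.7%, all genes 34.6%). The change that stood out was in the V0 sector. Atp6v0a1 (ENSMUSG00000019302, chr11:101009452-101063719, plus strand, mm10) encodes an isoform of subunit a, through which protons cross the membrane. It stood at 304, 320.5 and 309 CPM in untreated and 153, 150.4 and 158 CPM in TGF-β1 libraries under the floxed label. Under the knockout label it stood at 328, 374.5 and 316 CPM untreated and 157, 173 and 145 CPM with TGF-β1. All 6 treated libraries lay below all 6 untreated ones, and the 6 BMP4 libraries, at 289 to 352 CPM, lay above all treated ones. The log2 changes were -1.01 ± 0.08 (SE, edgeR adjusted p = 2.86e-09) and -1.10 ± 0.08 (9.84e-10). The ring subunits Atp6v0b and Atp6v0c and the coupling subunit Atp6v0d1 were not called without pairing. When libraries were paired by number, Atp6v0c was lower under both labels (edgeR adjusted p = 0.00135 and 0.00259). So was Atp6v0d1 (0.0368 and 0.0495), while Atp6v0b was not called.

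Of the other isoforms of subunit a, Tcirg1 and Atp6v0a2 were tested, and neither fell. Tcirg1, which encodes the a3 isoform known from osteoclast and macrophage lysosomes, rose from 687 ± 39.1 to 1010 ± 27.6 CPM (mean ± SD of 3) under the floxed label and from 636 ± 110 to 1040 ± 54.2 CPM under the knockout label, log2 changes of 0.56 ± 0.09 and 0.72 ± 0.09 (edgeR adjusted p = 4.67e-05 and 2.18e-06). On the FPKM scale Tcirg1 was at 153 and Atp6v0a1 at 47.2 without treatment, and at 224 and 23.3 with TGF-β1, under the floxed label. Atp6v0a2, at 6.64 FPKM untreated, was the lowest of the 3 and rose under the floxed label by 0.15 ± 0.05 (edgeR adjusted p = 0.0335), while its change of 0.09 under the knockout label was not called (0.226).

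In the V1 sector, Atp6v1b2 and Atp6v1d moved in opposite directions under both labels. Atp6v1b2 (ENSMUSG00000006273, chr8:69088646-69113711, plus), a subunit of the ATP-binding ring, stood at 675, 682 and 649.7 CPM untreated and 519, 517 and 497 CPM with TGF-β1 under the floxed label, and at 579, 699 and 627 against 449, 489 and 491.5 CPM under the knockout label. The groups did not overlap. Its log2 changes were -0.39 ± 0.06 and -0.41 ± 0.06 (edgeR adjusted p = 2.72e-05 and 1.23e-05). Atp6v1d (ENSMUSG00000021114, chr12:78840725-78861638, minus), which forms the central rotor, stood at 156.5, 138 and 149 CPM untreated and 207, 200.1 and 189 CPM with TGF-β1 under the floxed label. The knockout-label values were 122, 144 and 135 against 179, 169.5 and 186 CPM. All treated libraries lay above all untreated ones. Its log2 changes were 0.43 ± 0.06 and 0.41 ± 0.06 (edgeR adjusted p = 1.57e-05 and 2.64e-05).

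A pair of other V1 genes passed under the knockout label. Atp6v1a, the catalytic subunit, stood at 917, 1095 and 982 CPM untreated and 779.6, 892 and 866 CPM with TGF-β1 (log2 change -0.24 ± 0.09, edgeR adjusted p = 0.0387). The call was lost without any 1 of 4 libraries, untreated 2 or 3 or TGF-β1 1 or 3, with adjusted p-values up to 0.22. The floxed-label groups overlapped, 868 to 1081 against 829.7 to 941 CPM (-0.17 ± 0.09, 0.161). Atp6v1g1, part of the stator stalk, stood at 133, 161 and 141 CPM untreated and 169, 171 and 173 CPM with TGF-β1 under the knockout label (0.24 ± 0.07, 0.0108), and the call was lost without untreated library 1 (0.0621). The floxed-label change was 0.11 ± 0.07 (0.228). Atp6v1c1, Atp6v1e1, Atp6v1f and Atp6v1h had log2 changes between -0.04 and 0.08 under either label, none called.

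The accessory subunits, which help the pump assemble, were not called under either label without pairing. Atp6ap1 stood at 459 to 503 CPM in the 12 untreated and TGF-β1 libraries, and its groups overlapped under both labels, with log2 changes of -0.05 ± 0.04 and -0.02 ± 0.04 (edgeR adjusted p = 0.365 and 0.719). Atp6ap2 ran from 255 to 285 CPM untreated and from 279 to 302 CPM with TGF-β1 over both labels (0.10 ± 0.05 and 0.09 ± 0.05, 0.112 and 0.158).

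Of the 8 lysosomal membrane proteins, Scarb2 rose under both labels. Scarb2 (ENSMUSG00000029426, chr5:92441314-92506833, minus) carries the glucocerebrosidase enzyme to the lysosome. Under the floxed label it stood at 225, 233 and 206 CPM untreated and at 481.5, 501 and 473 CPM with TGF-β1. The knockout-labelled libraries stood at 225, 231 and 221 CPM untreated and at 506, 528 and 513.5 CPM with TGF-β1. Every treated library was at more than 2 times every untreated one, and the BMP4 libraries, at 220.4 to 242 CPM, lay below all treated ones. The log2 changes were 1.13 ± 0.05 and 1.19 ± 0.05 (edgeR adjusted p = 9.54e-13 and 4.77e-13), or 2.19-fold and 2.29-fold, the lowest adjusted p of the 45 genes under each label.

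Cln3, the membrane protein lost in juvenile Batten disease, fell under the floxed label, from 134, 146 and 131 CPM to 123.4, 122 and 117 CPM (log2 change -0.18 ± 0.05, edgeR adjusted p = 0.00507). The knockout-label groups did not overlap either, with 140.4, 136 and 133.5 CPM untreated and 124, 129 and 128 CPM with TGF-β1, but the change of -0.10 ± 0.05 was not called (0.107). The main glycoproteins of the lysosomal membrane, Lamp1 and Lamp2, had log2 changes between -0.06 and -0.02 and were not called. Neither were the tetraspanin Cd63 (0.14 ± 0.11 and 0.03 ± 0.11), the macrophage marker Cd68 (-0.14 ± 0.09 under both labels), Laptm5 (-0.05 and -0.12) or Laptm4a (-0.09 and -0.06).

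The 2 channels of the TRPML family differed. Mcoln2 (ENSMUSG00000011008, chr3:146149833-146195513, plus), a cation channel of recycling endosomes and lysosomes in myeloid cells, fell the most of the 45 genes under both labels. It stood at 61.4, 51.4 and 47.8 CPM untreated and at 19.6, 14.5 and 18.6 CPM with TGF-β1 under the floxed label, and at 54.4, 52.1 and 53.4 against 14.6, 14.8 and 17.8 CPM under the knockout label. All treated libraries lay far below all untreated ones, and the BMP4 libraries, at 49 to 57 CPM, lay among the untreated. The log2 changes were -1.62 ± 0.11 and -1.76 ± 0.11 (edgeR adjusted p = 2.81e-10 and 1.57e-10), 3.07-fold and 3.38-fold lower. Mcoln1, the calcium release channel of lysosomes, had changes of -0.02 ± 0.06 and 0.03 ± 0.07 and stood at 65.7 to 80.3 CPM in the 12 libraries.

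**Figure D3:**
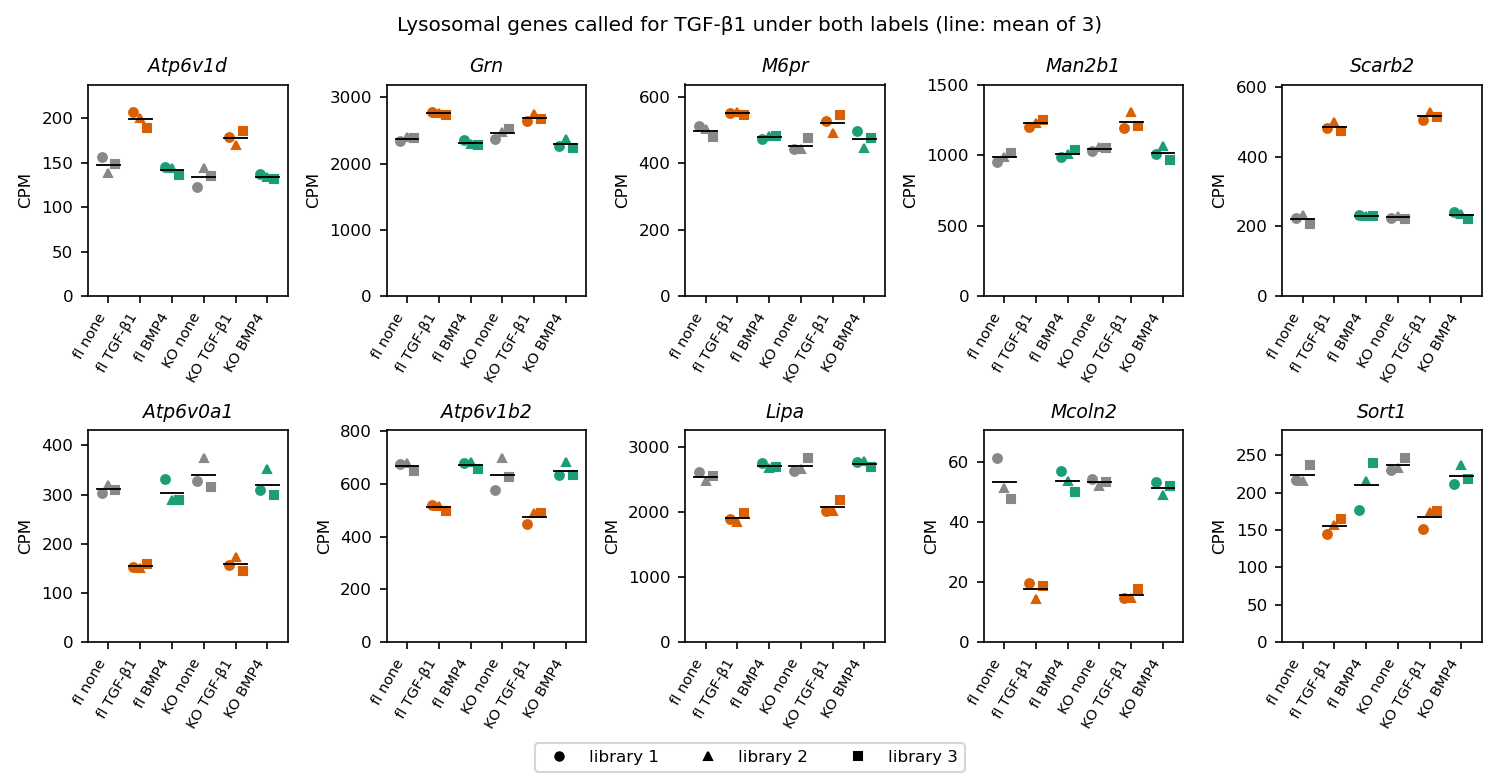
CPM in each of the 18 libraries for the 10 genes called for TGF-β1 under both labels (fl, floxed label; KO, knockout label; none, untreated; marker shapes, library numbers; lines, means of 3). Within each label the orange TGF-β1 points lie apart from the grey untreated points in all 10 panels; across labels those of M6pr overlap.

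Of the 13 hydrolases, 2 rose and 1 fell under the floxed label (23.1% called, all genes 33%). Under the knockout label 2 rose and 2 fell (30.8%, all genes 34.6%), and none changed 2-fold under either label. Lipa (ENSMUSG00000024781, chr19:34492318-34527474, minus) fell under both. Its 6 untreated libraries held 2618, 2477 and 2551 CPM under the floxed label and 2637, 2658 and 2834 CPM under the knockout label, and the TGF-β1 libraries held 1889, 1853 and 1993 CPM and 2012, 2021 and 2186 CPM. The log2 changes were -0.41 ± 0.05 and -0.39 ± 0.05 (edgeR adjusted p = 9.22e-07 and 2.29e-06). The other lipid hydrolases, the ceramidase Asah1 and the thioesterase Ppt1, had changes between -0.03 and 0.07, none called.

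Among the 7 glycosidases, Man2b1 rose under both labels. Man2b1 (ENSMUSG00000005142, chr8:85083270-85098282, plus), which trims mannose from glycoproteins, stood at 953, 990.1 and 1016 CPM untreated and at 1199, 1230 and 1247 CPM with TGF-β1 under the floxed label, and at 1027, 1056 and 1054 against 1193, 1306 and 1210 CPM under the knockout label. All treated libraries lay above all untreated ones. The log2 changes were 0.31 ± 0.05 and 0.24 ± 0.05 (edgeR adjusted p = 2.67e-05 and 0.000442). The sialidase Neu1 fell under the knockout label, from 133, 143 and 133 CPM to 114, 109.7 and 114 CPM (-0.28 ± 0.05, 0.000177). The floxed-labelled libraries stood at 126, 128 and 131 CPM untreated and at 119 CPM in each of the 3 treated libraries, with no overlap but no call (-0.11 ± 0.05, 0.0829).

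The fucosidase Fuca1 passed narrowly under the knockout label, with 183, 211 and 177 CPM untreated and 220.2, 226 and 204 CPM with TGF-β1 (log2 change 0.19 ± 0.07, edgeR adjusted p = 0.0457). These groups overlapped, and leaving out any 1 of 4 libraries (untreated 1 or 3, TGF-β1 1 or 2) ended the call, with adjusted p-values up to 0.195. The call was also lost in 4 other fits, among them that with total counts (edgeR adjusted p up to 0.0833). The floxed-label change was 0.16 ± 0.07 (0.0924). Glb1, Gaa, Hexa and Gusb, the enzymes that release galactose, glucose, hexosamine and glucuronic acid, had changes between -0.17 and 0.02, none called.

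Of the 3 peptidases, Tpp1, the tripeptidyl peptidase, rose under the floxed label from 400.1, 409 and 398.5 CPM to 447.5, 431 and 437 CPM (log2 change 0.12 ± 0.05, edgeR adjusted p = 0.0419). That call was lost without any 1 of the 6 libraries compared (adjusted p 0.0605 to 0.146). It was also lost in 4 other fits, among them that with total counts (edgeR adjusted p up to 0.233). The knockout-label groups overlapped, 386 to 425 against 415 to 457 CPM (0.08 ± 0.05, 0.174). Lgmn, an asparaginyl endopeptidase, and Dpp7, a dipeptidyl peptidase, had changes between 0.06 and 0.17, none called.

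Grn was the cofactor that changed. Grn (ENSMUSG00000034708, chr11:102430315-102437048, plus) encodes progranulin, a secreted and lysosomal protein that is cut into granulins. It stood at 2342, 2395 and 2383 CPM untreated and 2778, 2761 and 2734 CPM with TGF-β1 under the floxed label, and at 2375, 2474 and 2526 against 2638, 2755 and 2681 CPM under the knockout label. No treated library overlapped an untreated one. The log2 changes were 0.22 ± 0.04 and 0.13 ± 0.04 (edgeR adjusted p = 0.000378 and 0.0193). The knockout-label call was lost without untreated library 1 or TGF-β1 library 2 (up to 0.0552). It was also lost when only the groups compared were fitted (0.0683). Psap (-0.07 ± 0.08 and -0.11 ± 0.08) and the cholesterol carrier Npc2 (0.03 ± 0.06 and 0.06 ± 0.06) were not called.

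Sort1 and M6pr, which deliver cargo to the lysosome, moved in opposite directions. Sort1 (ENSMUSG00000068747, chr3:108284082-108361511, plus) encodes sortilin, which binds progranulin among other ligands. It stood at 217, 216 and 237 CPM untreated and 145, 157 and 165 CPM with TGF-β1 under the floxed label, and at 231, 233 and 246.5 against 151, 174 and 175.5 CPM under the knockout label. All treated libraries lay below all untreated ones. Its log2 changes were -0.52 ± 0.09 and -0.51 ± 0.09 (edgeR adjusted p = 8.66e-05 and 0.000125).

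M6pr (ENSMUSG00000007458, chr6:122308720-122317680, plus), the small mannose 6-phosphate receptor, rose from 513, 503 and 479.5 CPM to 553, 555 and 546 CPM under the floxed label and from 442, 443.5 and 475 CPM to 528, 493 and 547 CPM under the knockout label. Its log2 changes were 0.15 ± 0.05 and 0.20 ± 0.05 (edgeR adjusted p = 0.0304 and 0.00322). The floxed-label call was lost without any 1 of 5 of the 6 libraries (up to 0.175). It was also lost in 3 other fits, among them that with total counts (up to 0.0897). Igf2r, the large receptor of the same tag, varied widely between libraries and was not called (0.29 ± 0.51 and 0.20 ± 0.50). With the library number as a block within labels it was called higher under both (0.33 ± 0.07 and 0.19 ± 0.07, edgeR adjusted p = 0.000544 and 0.0421), and its CPM was higher with TGF-β1 in all 6 pairs of the same number and label.

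The transcription factors themselves were not called. Tfeb stood at 63.9, 63.6 and 73.9 CPM untreated and 76.7, 61.1 and 64.8 CPM with TGF-β1 under the floxed label, and at 70.1, 89.4 and 61.8 against 66.7, 82.5 and 57.7 CPM under the knockout label. Tfe3 stood at 151.5, 169 and 181 against 159.6, 175 and 179.5 CPM, and at 180.4, 172 and 179 against 176, 179 and 169 CPM. The groups overlapped for both genes under both labels. Their log2 changes lay between -0.10 and 0.04 (edgeR adjusted p 0.653 to 0.977). Tfec, a relative of the same family, fell from 40.6 ± 1.81 to 13.6 ± 1.26 CPM under the floxed label and from 37.2 ± 0.626 to 10.8 ± 1.1 CPM under the knockout label (-1.57 ± 0.08 and -1.78 ± 0.08, 7.13e-12 and 2.71e-12). Without the block, Cln3 and Atp6v1a were called among the 6 genes whose promoter windows held TCACGTGA, each lower and under 1 label. Atp6v0d1, Dpp7, Igf2r and Mcoln1 were then called under neither label, and 35.6% of all members under at least 1. With the block, Atp6v0d1 and Atp6v1a were lower and Igf2r was higher under both labels. Cln3 was then lower under the floxed label alone, Dpp7 was higher under the knockout label alone, and Mcoln1 was not called. With the block, 51.1% of all members were called under each label. Of all genes 20.1% then rose and 19.5% fell under the floxed label, and 20.2% and 20.1% under the knockout label. A difference between these 6 genes and the other members was not tested. Neither motif was in the windows of Scarb2 and Atp6v0a1, and Mcoln2 held CACGTG alone.

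The libraries of a label shared deviations by their number: the correlation of deviations from the group means over 8601 genes was 0.334 to 0.731 for all 18 pairs of the same number and label, and -0.337 to 0.08 for the 9 same-numbered pairs across labels. With the number as a block within each label, more genes were called. Of the 45, 11 rose (24.4%) and 12 fell (26.7%) under the floxed label, beside 20.1% and 19.5% of all genes. Under the knockout label 9 rose (20%) and 14 fell (31.1%), beside 20.2% and 20.1% of all genes. The 23 called under each label were 51.1% of the members, so the minority seen without the block did not hold here. The shares of members that fell were above those of all genes under both labels. None of the calls made without the block was lost, and 19 members (42.2%) were called under both labels, beside 32.2% of all genes in that fit. The 9 that this added to the 10 named above were Atp6v1g1, Fuca1 and Igf2r, which rose, and Atp6v0c, Atp6v0d1, Atp6v1a, Cd68, Hexa and Neu1, which fell. Atp6v0c had block log2 changes of -0.22 and -0.23 (edgeR adjusted p = 0.00135 and 0.00259). Hexa, at -0.10 and -0.13, and Atp6v0d1, at -0.11 under both labels, were among the smallest. Some passed narrowly: Neu1 and Atp6v1g1 under the floxed label (edgeR adjusted p = 0.0499 and 0.0479), and Atp6v0d1 and Igf2r under the knockout label (0.0495 and 0.0421). No library was left out in turn in that fit. In that fit Atp6ap2, Cd63, Cln3 and Tpp1 passed under the floxed label alone, and Dpp7, Gaa, Laptm5 and Psap under the knockout label alone.

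Other genes of the lysosome were counted from 7 lists of 135 genes in all, of which 128 were tested; 20 rose and 23 fell under both labels, where 13.8% of all genes rose and 13.2% fell. Among 12 genes of cathepsins, the lysosomal proteases, and their inhibitor cystatin C, 3 rose: Ctsd from 3280 ± 172 to 5510 ± 240 CPM under the floxed label (log2 0.75 ± 0.08, and 0.79 ± 0.08 under the knockout label), Ctsh (0.74 and 0.80) and Ctss (0.33 and 0.48). Among 29 other hydrolases 5 rose, among them the sulfatase Galns (0.52 and 0.60) and the mannosidase Manba (0.20 and 0.18), and 2 fell, Smpd1 (-0.43 and -0.38) and Ids (-0.13 and -0.19).

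Of 24 other membrane proteins tested 3 rose, the amino acid exporter Slc36a1 (0.77 and 0.69 on the log2 scale), the nucleoside transporter Slc29a3 (0.60 and 0.48) and the cholesterol exporter Npc1 (0.35 and 0.29), and 6 fell, among them the channel Tpcn1 (-0.34 and -0.58), the cystine exporter Ctns (-0.46 and -0.45) and Mfsd8 (-0.33 and -0.36). Of 18 genes of sorting to lysosomes 2 rose and 5 fell. Gnptab, which makes the mannose 6-phosphate tag, rose from 99 ± 6.2 to 235 ± 14.5 CPM under the floxed label and from 105 ± 9.8 to 239 ± 11.2 CPM under the knockout label (1.25 ± 0.07 and 1.19 ± 0.07, edgeR adjusted p = 4.35e-11 and 1.02e-10). Ap1g1, a subunit of the AP-1 coat, rose (0.23 and 0.19). Its partner Ap1b1 (-0.34 and -0.38), Sorl1, a relative of Sort1 (-0.49 and -0.57), and Vps33a (-0.22 and -0.17) fell. Of 19 genes of the TFEB family and its nutrient switch 2 rose, Rptor (0.83 and 0.66) and Rheb (0.28 and 0.25), and 6 fell, with Tfec, Flcn (-0.38 and -0.40) and Fnip2 (-0.44 and -0.58) among them. Of 21 autophagy genes 4 rose, among them Wipi1 (1.06 and 1.04), the cargo receptor Sqstm1 (0.22 and 0.21) and Map1lc3b (0.22 and 0.21). The other 4 called there fell, among them Tecpr1 (-1.14 and -1.30), Gabarapl1 (-0.46 and -0.52) and Atg3 (-0.29 and -0.21). Of 5 further pump subunits tested, Tcirg1 rose.

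BMP4 gave no call among the 45 genes. Under the floxed label edgeR and DESeq2 each called 0 members, 0 members had an unadjusted p under 0.05, and 0% of all genes were called. The log2 changes ran from -0.16 (Igf2r) to 0.09 (Mcoln1), and the lowest unadjusted p were those of Lipa and Cln3. Lipa stood at 2754, 2679 and 2693 CPM with BMP4 against the 2477 to 2618 CPM of the untreated libraries (0.09 ± 0.05, edgeR adjusted p = 0.7), and Cln3 at 143.5, 148 and 143 against 131 to 146 CPM (0.08 ± 0.05, 0.719).

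Under the knockout label edgeR and DESeq2 again called 0 members with BMP4, beside 0.572% of all genes by edgeR, and 5 had an unadjusted p under 0.05 (12.2% of all genes): Gaa, Grn, Atp6v1g1, Cln3 and Laptm5. The log2 change of Gaa, the glucosidase that degrades glycogen, was -0.20 ± 0.08 (edgeR adjusted p = 0.278) and that of Grn -0.10 ± 0.04 (0.315). Grn stood at 2259, 2373 and 2241 CPM with BMP4, all below the 2375 to 2526 CPM of the untreated libraries. With the block, Gaa alone of the 45 was called, lower at -0.20 (edgeR adjusted p = 0.021), where 3.21% of all genes were called.

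Knockout-labelled libraries were also compared with floxed-labelled ones. Lyz2, where the Cre allele sits, was higher under the knockout label (13450 to 17790 CPM) than under the floxed label (at most 9872 CPM). No animal or culture is named for a library, so whether the Cre allele made any difference between labels was not tested. Untreated knockout-labelled and floxed-labelled libraries differed in 0 of the 45 genes by edgeR and by DESeq2, beside 2.39% of all genes by edgeR. An unadjusted p under 0.05 was found for 8: Atp6v0b, Atp6v1d, Atp6v1e1, Atp6v1f, Atp6v1g1 and Atp6v1h of the pump, Npc2 and M6pr, with differences from -0.22 to -0.13, all lower under the knockout label. Of all genes 17.5% had such a p, so the count without regard to direction is near the background. With a lower level 8.17% of all genes had it, and the 8 members, all lower, are a larger share of the 45 than that. Atp6v0b stood at 269.5, 336 and 269 CPM under the knockout label and 317.5, 342 and 350.3 CPM under the floxed label (-0.21 ± 0.07, edgeR adjusted p = 0.115), and Atp6v1g1 at 133, 161 and 141 against 184, 154 and 164 CPM (-0.21 ± 0.07, 0.118). In both genes library 2 was the highest of the knockout-labelled 3 and overlapped the floxed-labelled group; without it 4 members were called lower, Atp6v0b, Atp6v1f, Atp6v1g1 and Npc2, beside 2.45% of all genes. As every floxed-labelled library numbered 1 differs from the others of its group in Lyz2, the count was also taken without those, and it was again 0. The summed inflammatory monocyte markers stood at 556 to 796 CPM in the floxed-labelled and 410 to 478 CPM in the knockout-labelled untreated libraries, and their part in these differences was not tested.

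With TGF-β1 the labels differed in 0 of the 45 genes by edgeR and by DESeq2 (0.388% of all genes by edgeR), with 5 at an unadjusted p under 0.05 (12.5% of all genes). Atp6v1d stood at 179, 169.5 and 186 CPM under the knockout label against 207, 200.1 and 189 CPM (log2 difference -0.16 ± 0.06, edgeR adjusted p = 0.284), and Cd63 differed by -0.28 ± 0.11 (0.293). With BMP4 it was again 0 by both tools (0.0272% of all genes by edgeR), with 2 at an unadjusted p under 0.05 (7.91% of all genes). Neu1 stood at 136, 140.2 and 127 CPM under the knockout label against 118, 129 and 119 CPM (0.14 ± 0.05, 0.447), and Atp6v1e1 differed by -0.12 ± 0.06 (0.618).

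The test of whether the labels differed in their response called 0 members for TGF-β1 by edgeR and by DESeq2, beside 1 gene in all (0.00681%), and 0 for BMP4 by both tools (0% of all genes). For TGF-β1, 1 member had an unadjusted p under 0.05 (3.36% of all genes): the log2 change of Neu1 was lower under the knockout label, a difference of -0.16 ± 0.07 (edgeR adjusted p = 1). The next was Grn (-0.09 ± 0.06, edgeR adjusted p = 1). The 45 differences ran from -0.16 to 0.13. For BMP4, 0 members had an unadjusted p under 0.05, and the lowest were those of Atp6v1g1 (0.18 ± 0.10, edgeR adjusted p = 0.919) and M6pr (0.12 ± 0.07, 0.943). The TGF-β1 changes of the 45 genes had the same sign under both labels for 39 (86.7%; all genes 80.4%).

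**Figure D4:**
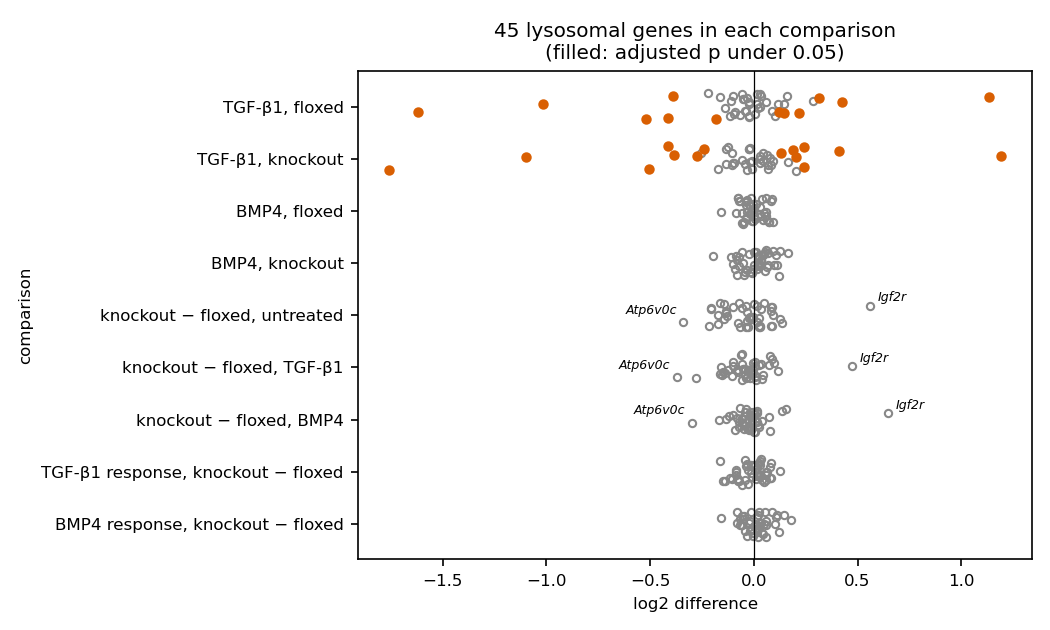
log2 differences of the 45 genes in each of the 9 comparisons, 1 point per gene with random vertical spread. Filled orange points passed an adjusted p of 0.05 in edgeR and occur in the TGF-β1 rows only; Igf2r and Atp6v0c lie farthest out between labels, from 0.47 to 0.65 and from -0.37 to -0.30, and are not called there.

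The members with the widest spread within groups followed the library number and lay on chromosome 17. Atp6v0c (ENSMUSG00000024121, chr17:24163866-24169702, minus), the subunit of the V0 ring, stood at 24, 23.1 and 26.5 CPM in the knockout-labelled libraries numbered 2 (untreated, TGF-β1 and BMP4) and at 59.5 to 83 CPM in the other 15. Igf2r (ENSMUSG00000023830, chr17:12682406-12769664, minus) stood at 329, 387 and 342 CPM in the same 3 libraries. It stood at 72.5, 108 and 77.7 CPM in the floxed-labelled libraries numbered 2 and at 205, 230.1 and 171 CPM in those numbered 3. Tfeb (ENSMUSG00000023990, chr17:47737030-47792419, plus) stood at 89.4, 82.5 and 84.2 CPM in the knockout-labelled libraries numbered 2, the highest of the 18. Neu1, the other member on this chromosome, showed no such split. The number within its label took 78.3%, 80.2% and 78.1% of the variance of log2 CPM in Atp6v0c, Igf2r and Tfeb, and 79.9% in Glb1 on chromosome 9, against 0.367% in Scarb2, where the group took 99.3%. These genes were singled out after their values were seen, and why the numbered libraries differ was not tested.

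**Figure D5:**
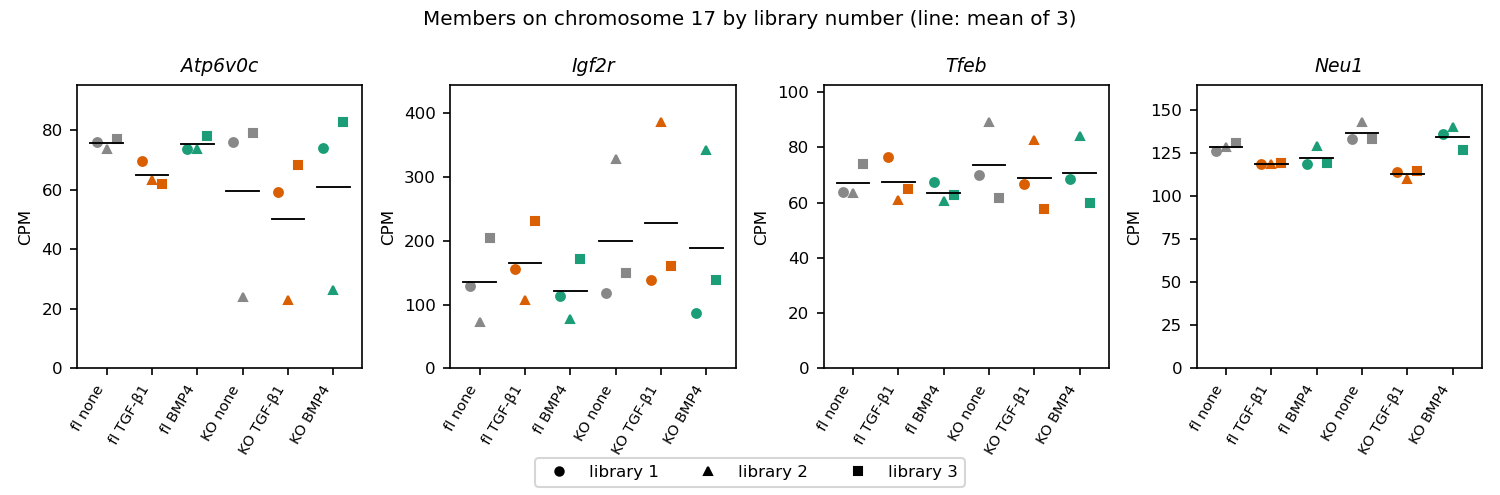
CPM in each of the 18 libraries for the 4 members on chromosome 17 (fl, floxed label; KO, knockout label; none, untreated; marker shapes, library numbers; lines, means of 3). The triangles, libraries numbered 2, stand apart under the knockout label at 23.1 to 26.5 CPM in Atp6v0c and 329 to 387 CPM in Igf2r.

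Some counts may hold reads of more than 1 gene, since the sources used here do not give whether strand was used in counting. Igf2r overlaps the antisense RNA Airn, Grn overlaps Fam171a2, Cln3 overlaps Apobr, Atp6v1b2 overlaps Slc18a1, Sort1 overlaps Gm12523, Lamp1 overlaps Grtp1, Hexa overlaps Tmem202 and Atp6v0b overlaps Gm12841, each on the opposite strand. Atp6v0c shares its strand with Gm43796, and Atp6v0c, Cd63 and M6pr have named pseudogene copies. These values are less certain than those of a gene without overlap or copy, such as Mcoln2. Scarb2 overlaps the microRNA gene Mir6415 on the opposite strand, and Atp6v0a1 overlaps Mir6928 on its own strand. Further overlaps are those of Ppt1 with Cap1, Atp6v1h with Rgs20 and Atp6v1e1 with Slc25a18 on the opposite strand. Glb1 overlaps Tmppe and Sort1 overlaps Gm43099 on the same strand.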

How the data were processed

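RNA-seq was done on 18 libraries. Per the submitters' processing notes, the tools were TopHat2 2.0.9, HTSeq 0.6.1 and Cufflinks 2.1.1, with the builds mm10 and GRCm38.p6; which step used which is not given in the sources used here. The authors deposited raw read counts per gene, as the file headers show, and FPKM values computed by the authors per gene and library; gene coordinates and lengths come from the same deposited table. The 78 other columns of per-sample values were not used. Counts were tested in edgeR 4.0.16 (R 4.3.3): filterByExpr, TMM scaling, 1 mean for each of the 6 groups over all 18 libraries, the quasi-likelihood test, and Benjamini-Hochberg adjustment over 14684 genes, called at an adjusted p under 0.05. The SE of a log2 change is its size divided by the square root of the test's F value. CPM uses the TMM-scaled totals, and FPKM was used only to compare levels between genes. The script was tested on simulated counts. Libraries of a group differed by more than counting noise in all 18 pairs, and each was counted as 1 replicate. That spread does not show that the libraries are independent. The fit without a block takes all 18 as independent, also for differences between labels. Library numbers pair the libraries within a label (correlations of deviations 0.334 to 0.731) and not across labels, so the block was fitted within labels; it cannot be fitted for differences between labels.

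All 45 genes are accounted for by role. Values per library are given for up to 4 called members of a role in each direction, by lowest adjusted p, for the 2 highest by FPKM in a role with none called, and for the 2 with the lowest unadjusted p in each other comparison. Other lysosomal genes are named where called under both labels, up to 3 per list and direction. Some items that this rule would name are not reported here. The members and lists were chosen with earlier results of these data known. Alternatives were DESeq2 1.42.0, its size factors, total counts, other filters, only the groups compared, the blocks, and leaving out libraries.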

Additional observations from a re-analysis of the deposited data

How the results depend on the processing

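Of 480 refits of single genes in the TGF-β1 comparisons, 435 kept their direction and their side of the threshold, 34 lost a call, 11 gained one and 0 changed sign. Of the calls made, 10 of 12 under the floxed label and 10 of 14 under the knockout label held in every fit. Leaving out each library in turn gave 10 to 13 members called under the floxed label and 11 to 15 under the knockout label. The replicate block within labels gave 23 and 23, and 1 for BMP4 under the knockout label (Gaa). The block over all groups gave 13 and 16. Without a low-count filter 7 members differed between untreated labels (1 higher, 6 lower), 3 with TGF-β1 and 2 with BMP4. Igf2r and Atp6v0c were in all 3 counts, and the cause was not tested. Shares of all genes are not given here for the refits of this paragraph. Its member counts therefore cannot be read as a trait of lysosomal genes. Leaving out a library gave 0 to 4 members between untreated labels, the 4 without knockout-labelled untreated library 2. In the remaining comparisons and settings the counts stayed at 0. No block could be fitted within labels for differences between them. With 3 libraries a group the SE of a log2 change was 0.0406 to 0.506 among members not called under the floxed label, the highest being that of Igf2r.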

Other observations

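For 16 of the 45 genes the library number within its label took a larger share of the variance in log2 CPM than the group did. Among them were Igf2r (80.2%), Glb1 (79.9%), Atp6v0c (78.3%), Tfeb (78.1%), Atp6v1c1 (76.4%) and Gusb (72.5%). The same count was not taken over all genes, so it cannot be read as a trait of lysosomal genes. Of the 8601 genes averaging 10 CPM or more, 6 stood at least 2-fold apart from all other libraries in all 3 knockout-labelled libraries numbered 2. Atp6v0c, the ribosomal protein gene Rps2 and the class I histocompatibility genes H2-T23, H2-T22 and H2-Q5 were below, and all 5 lie on chromosome 17, where 442 genes were considered (1.13%). Rps2 stood at 198 to 212 CPM in these 3 libraries and at 446 to 615 CPM in the other 15, and H2-T23 at 21.5 to 31.9 against 143 to 372 CPM. Firre, on chromosome X, was above, at 35.1 to 43.8 against 4.61 to 8.76 CPM. In the floxed-labelled libraries numbered 1, Lyz2, Gm1966 and Gvin1 were below all others, and in the knockout-labelled libraries numbered 3, Ifi44, Ifi44l and Tma7-ps were. These genes were found by their values, and the cause was not tested.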
